A study of Mus musculus with 4 samples.

Results

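Limb RNA of mouse embryos with conditional ablation of Rest (CKO) was compared with limb RNA of wild type (WT) embryos across all genes on the array. Both limb arrays of the 4 in the series entered the comparison. Of 27630 genes or unnamed transcripts on the array, 18450 were well above background on at least 1 limb array and were compared. The WT and CKO brain arrays, on which 18947 genes were compared in the same way, served for reference: to show which genes have signal in neural tissue and at what level, and in places to give the same contrast there.

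The CKO embryos carried floxed Rest alleles and Cre recombinase alleles that doxycycline switches on, and doxycycline was given from E8.5 to E13.5 (E, embryonic day). The labels record the same doxycycline days for WT, and a mixed 129 and C57BL/6 background for both groups. Tissue was taken at E13.5. The labels give neither the promoter or locus that drives Cre, nor the floxed part of Rest, nor whether WT embryos carried any of these alleles, nor how many embryos, which limbs or how much of each limb went into a sample. Each group had 1 array. There were therefore no replicates and no test of CKO against WT, and genotype cannot be told apart from differences between embryos, dissections or arrays. Genes are described by the size of their difference.

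REST is a zinc-finger repressor that binds a DNA element called RE1 near many neuronal genes and, with corepressors that modify histones, keeps them off in cells that are not neurons. The limb bud is built mostly of mesenchyme, cartilage, muscle, skin, vessels and blood. Its only neuronal structures are axons growing in from ganglia and spinal cord, whose cell bodies and nuclei lie outside the limb.

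Levels are log2 signals, scaled so that the 75th percentile of each array is 0, and differences are CKO minus WT. A gene not well above background is called silent here. Where a gene was silent on 1 limb array, its difference is a bound, written "at least", measured against the faintest signal that counted as above background on that array, or against the silent signal itself if that was stronger. A bound that would have pointed the opposite way was set to 0. Spots above background made up 62.7% of 43379 on the WT limb array and 68.6% on the CKO limb array, so more genes were seen only in CKO limb (1590) than only in WT limb (188). The 2 brain arrays stood in the same order, at 64.5% for WT and 70.7% for CKO. The only error the arrays give is that of probes printed 10 times. The SD of a single spot's difference had a median of 0.042 over 182 such probes above background, of 0.030 at levels of 0 or more and of 0.13 at levels under -3. It covers the spread between spots and neither labelling nor embryos.

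The targeted gene was lower in CKO limb at each of its 3 probes. On chromosome 5 of mm9, the Rest probe at 77709928 to 77709987 went from 2.41 in WT limb to -1.56 in CKO limb (15.7-fold lower). The probe at 77711857 to 77711916 went from -0.75 to -4.85 (17.1-fold lower), and the one at 77715162 to 77715221 from 1.64 to -0.37 (4.03-fold lower). They kept 6.38%, 5.83% and 24.8% of the WT signal. Whether a probe lies inside the deleted part is not known, and one outside it would check nothing. Among 20 genes of the REST complex, corepressors included, Rest alone differed by 2-fold at the probe of highest mean, and the median was -0.07. A fainter probe of the corepressor gene Sin3b was 2.67-fold lower, from -3.54 to -4.95, and another differed by -0.14.

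Both samples carried the markers of limb mesenchyme. The mesenchymal homeobox gene Prrx1 was at 4.24 in WT limb and 4.23 in CKO limb, and the distal mesenchyme gene Msx1 was at 1.47 and 1.36. Of 11 such markers, 10 were above background. Lmx1b, which marks dorsal mesenchyme, was silent on both arrays. Tbx5, a forelimb gene, was at 3.30 and 3.1. The hindlimb genes Tbx4 and Pitx1 were at -3.03 and -3.55, and at -0.92 and -0.81.

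Most genes in limb hardly differed, and those past 2-fold were split into sets of similar size, higher and lower in CKO. Members of the neuronal lists described below made up 22.8% of the higher set and 2.51% of the lower set. The median difference was -0.02 over the 18450 genes, with quartiles of -0.16 and 0.07 over the 16672 measured on both arrays. At least 2-fold higher in CKO were 460 genes (2.49%), 198 of them as bounds, and at least 2-fold lower were 398 (2.16%), 182 of them as bounds. At 1.5-fold the shares were 4.77% higher and 4.73% lower. At 8-fold they were unequal, with 97 genes higher and 37 lower, of which 39 and 8 were measured on both arrays.

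The higher and the lower genes differed in what else the files say of them. Where a higher gene had another probe above background, that probe was at least 1.5-fold higher for 100 of 141 genes (70.9%). The same held in the lower direction for 12 of 34 lower genes (35.3%). In WT brain, 82.4% of the higher genes and 33.2% of the lower ones were above background, against 89.1% of all genes compared. With another background correction, normexp, the counts were 284 higher and 152 lower.

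**Figure D1:**
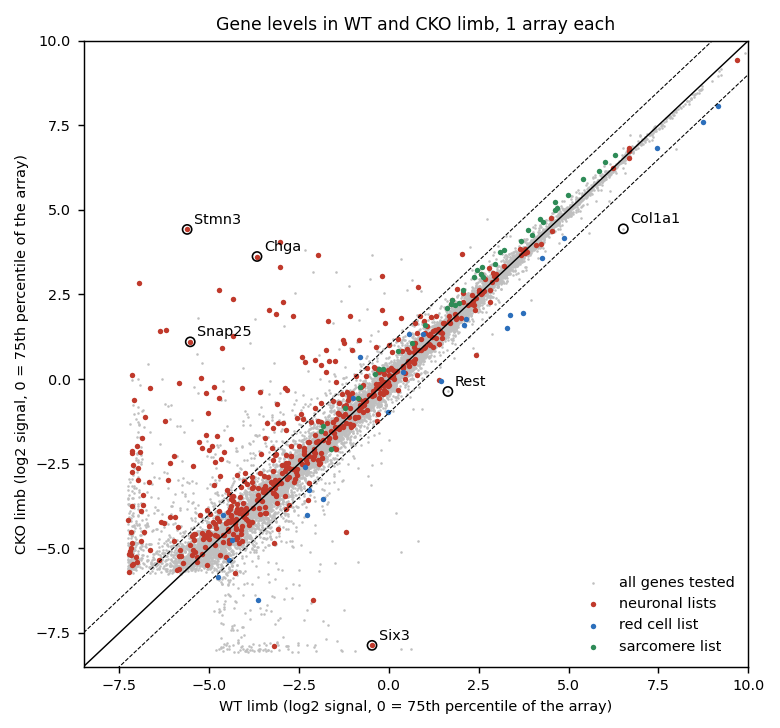
Level of each of 18450 genes in WT limb (horizontal axis) and CKO limb (vertical axis), 1 array each, both in log2 signal with 0 at the 75th percentile of the array. The solid line marks equal levels and the dashed lines 2-fold differences; ringed points are the genes named. Members of the neuronal lists (red) spread far above the line at low WT levels, sarcomere genes (green) lie slightly above it along its length, and red cell genes (blue) lie mostly below it.

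Neuronal functions were followed with 25 lists covering granules, synaptic release, transmitters, receptors, channels, adhesion, cytoskeleton, RNA factors, transcription factors, guidance and progenitors. These lists were chosen with earlier results of these data known. Their shares therefore describe the lists and give no independent support for an excess of neuronal genes. Of 671 members on the array, 542 were compared, and 105 of these were higher by 2-fold or more (19.4%, against 2.49% of all genes) and 10 lower by as much (1.85%, against 2.16%). Their median difference was 0.16, so the typical member differed little. The 105 made up 22.8% of all genes called higher. In bulk tissue, a few cells with much of an RNA and many cells with little of it cannot be told apart. Requiring signal on both arrays left 63 of the 105.

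The genes of regulated secretion stood at the top of these lists. Granins are acidic proteins that pack hormones and peptides into dense-core granules. Chromogranin B (Chgb) went from -4.73 in WT limb to 2.63 in CKO limb, 165-fold higher, with WT brain at 3.84. Chromogranin A (Chga) went from -3.67 to 3.62, 157-fold higher, with WT brain at 3.43. Secretogranin III (Scg3), which binds chromogranin A at the granule membrane, went from -3.02 to 4.04, 133-fold higher, with WT brain at 4.05. All 3 were faint in WT limb, and in CKO limb they were within 3-fold of their WT brain level or above it. Scg2 was silent in WT limb and reached 1.42, at least 82.7-fold higher and above its WT brain level of -0.02. The chaperone gene Scg5 was at least 31.7-fold higher.

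The enzymes that cut prohormones within these granules were higher too. Pcsk1 was at least 7.13-fold higher and Pcsk2 differed by 2.63. Of 10 granule cargo and enzyme genes, 7 were at least 2-fold higher, none was lower, and the median difference was 3.91 (0.27 in brain, where it rests on its own pair of single arrays, so that the tissues' difference was not tested). With signal required on both arrays the limb median was 2.63, and with normexp 2.80. Among 13 genes of the granule membrane and its exocytosis, 3 were higher and none was lower. These were the receptor-like phosphatase Ptprn, from silent to -0.62 (at least 20.1-fold), above its WT brain level of -2.35, Baiap3 (5.18-fold) and the priming factor Cadps (2.56-fold).

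The peptides that such granules carry were considered next. Among 29 neuropeptide and hormone precursors, 4 were at least 2-fold higher (13.8%) and none was lower, and the median was 0.20. Cartpt, which encodes an appetite-related peptide, was silent in WT limb and at -2.03 in CKO limb (at least 7.57-fold). The heart peptides Nppa and Nppb were 4.99-fold and at least 3.94-fold higher. Somatostatin (Sst) went from -1.02 to 0.86, 3.66-fold higher. The vasopressin and thyrotropin-releasing hormone genes, Avp and Trh, were silent on both limb arrays and above background in WT brain.

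Genes of synaptic release also held members with large folds. SNARE proteins fuse vesicles with the cell membrane, and complexins, Munc13 and active-zone scaffolds time that step. Snap25, a SNARE, was silent in WT limb and at 1.10 in CKO limb, at least 66.1-fold higher, with WT brain at 2.56. Complexin 1 (Cplx1) was silent and then at 0.93, at least 47.2-fold higher, and the priming factor Unc13a was silent and then at -0.11, at least 28.5-fold higher and above its WT brain level of -0.69. Of 26 genes, 10 were at least 2-fold higher and 1, Doc2b, was lower, by at least 2.74-fold. The median was 0.57, and 0.31 with signal required on both arrays. The scaffolds Bsn and Pclo were at least 18.2-fold and 9.87-fold higher, and Rims2 was at least 9.17-fold higher.

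Of 19 genes for proteins of the vesicle itself, 4 were at least 2-fold higher, and the median was 0.19. Synaptophysin (Syp) was silent in WT limb and at -0.41 in CKO limb, at least 23.3-fold higher. Synapsin 2 (Syn2) was 3.18-fold, Scamp5 2.60-fold and amphiphysin (Amph) 2.26-fold higher. Sncb, of presynaptic terminals, was silent on both arrays. Of 14 synaptotagmins, the calcium sensors of secretion, Syt4 (at least 7.19-fold) and Syt7 (3.93-fold) were higher and Syt6 was 2.54-fold lower.

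**Figure D2:**
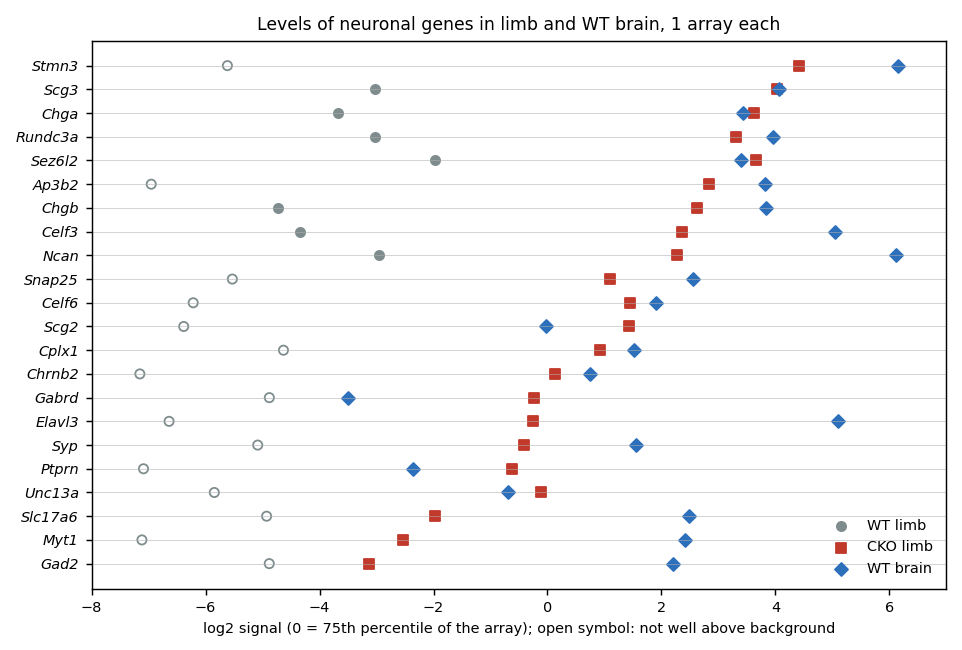
Levels of 22 neuronal genes in WT limb (circles), CKO limb (squares) and WT brain (diamonds), 1 array each, in log2 signal with 0 at the 75th percentile of the array; open symbols were not well above background. In CKO limb, Chga, Sez6l2, Scg2, Gabrd, Ptprn and Unc13a lie above their own WT brain level, whereas Elavl3, Slc17a6, Myt1 and Gad2 lie far below it.

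Some genes that define a transmitter type were higher and others stayed silent. Of 18 genes for transmitter synthesis and vesicle loading, 3 were higher (16.7%) and 1 was lower. The vesicular glutamate transporter Slc17a6 was silent in WT limb and at -1.98 in CKO limb, at least 7.74-fold higher, and this was 4.52% of its WT brain level. The GABA-producing enzyme Gad2 was at least 3.38-fold higher, at 2.48% of WT brain. The monoamine vesicle transporter Slc18a1 was 2.32-fold higher. Gad1, the dopamine-pathway genes Th and Slc6a3, and the acetylcholine enzyme Chat were silent on both limb arrays. The gene called lower was Hdc, the histamine enzyme, which mast cells make, at 1.39 and -0.03 (2.68-fold).

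Among receptors, some subunits were higher and others stayed silent. For GABA and glycine receptors, 4 of 13 were higher, each silent in WT limb, and the median was 0.01. Gabrd reached -0.24, at least 25-fold higher and above its WT brain level of -3.50. Glra2 was at least 7.75-fold higher, while Gabra2 and Gabrg1 stayed silent. Among 28 glutamate receptor and auxiliary genes, 5 were higher. Cacng2, an auxiliary subunit of AMPA receptors, was 6.24-fold higher, and the AMPA receptor subunit Gria2 went from -1.28 to 1.15 (5.40-fold). Cacng5 was at least 2.28-fold and Grik1 2.07-fold higher, and Grm2 stayed silent. Grm5 was silent on both arrays at its probe of highest mean, while another probe went from silent to -3.19 in CKO limb, at least 3.39-fold higher. Grik2 was at least 12.5-fold lower at its probe of highest mean, from -2.11 to silent, but its other probe, silent in WT limb, differed by at least 0.36 the other way.

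Nicotinic receptor subunits differed among themselves. The beta-2 subunit Chrnb2 was silent in WT limb and at 0.13 in CKO limb, at least 33.8-fold higher, and Chrna4, with which it forms the common brain receptor, was 3.46-fold higher, whereas Chrna3 of ganglion receptors was silent on both arrays. These 2 were the only ones of 16 nicotinic, serotonin type 3 and ATP-gated channel genes past 2-fold. Of 34 receptors for amines, acetylcholine, opioids and peptides on the array, only 14 were compared, and 3 were higher. The dopamine receptor Drd2 was at least 6.86-fold and the histamine receptor Hrh3 at least 5.16-fold higher. Oprl1 was 2.63-fold higher at its probe of highest mean, and its other probe differed by -0.035. Htr2c, Htr1b, Drd1 and Adra2c stayed silent.

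Among ion channels, potassium channels held the most genes past 2-fold, 13 of 45, with none lower and a median of 0.19. The leak channel Kcnk3 went from -4.09 to -0.25, 14.3-fold higher and above its WT brain level of -1.42. The sodium-activated channel Kcnt1 was 8.65-fold and the pacemaker channel Hcn3 8.38-fold higher. Kcnc1, which shapes fast firing, was at least 6.75-fold higher. The sodium channel Scn8a was 4.99-fold and its partner Scn3b 3.75-fold higher among 10 sodium channel genes, and Scn9a and Scn11a of sensory neurons were silent. Among 14 calcium channel genes, only Cacna1b, the N-type channel of nerve terminals, was higher at the probe of highest mean (4.31-fold). Another probe of Cacna2d2 went from -3.20 to -1.75, 2.74-fold higher, and a further one, silent in WT limb, differed by at least 0.16.

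Iqsec3, an exchange factor of inhibitory synapses, went from -4.33 to 1.26, 48.2-fold higher, and the scaffold Mapk8ip2 from -2.66 to 1.86, 23-fold higher. Dlgap3, Adgrb1 and Mapk8ip1 were 10.6-fold, 6.18-fold and 2.75-fold higher, and the kinase Brsk2 at least 4.59-fold, at 0.991% of WT brain. Of 33 postsynaptic genes, 7 were higher and none was lower at the probe of highest mean. Another probe of Dlg2 went from -3.38 to -5.61, 4.70-fold lower. Of 39 synaptic and axonal adhesion genes, 9 were higher and 1 was lower. Sez6l2 went from -1.98 to 3.66, 49.7-fold higher, and the brain proteoglycan gene Ncan from -2.95 to 2.27, 37.4-fold higher. Sez6 was at least 14.2-fold and Cadm3 9.24-fold higher, while Lrfn5 was 2.57-fold lower and Nrxn3, Lrrtm1, Lrrtm2 and Lrrtm4 were silent.

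Cytoskeletal and transport genes gave the largest bound of all. The microtubule regulator Stmn3 was silent in WT limb and at 4.42 in CKO limb, at least 662-fold higher, with WT brain at 6.16. Rundc3a went from -3.02 to 3.32, 80.8-fold higher, Nrsn1 from -3.33 to 2.03, 40.9-fold higher, and Gprin1, a growth cone protein, from -3.14 to 1.92, 33.3-fold higher. Crmp1 and Stmn2 were 9.59-fold and 7.15-fold higher. In all, 8 of 33 such genes were higher and none was lower at the probe of highest mean. Jakmip3 was silent on both arrays at that probe, while another went from -3.93 to silent, at least 3.56-fold lower. Of 8 neural intermediate filament genes, Nefh (at least 5.49-fold; its other probe differed by 0.48), Nefm (3.90-fold) and Ina (3.46-fold) were higher. The neuronal adaptor subunit Ap3b2 went from silent to 2.84, at least 221-fold higher, and Kif5a was 4.75-fold higher. These were the 2 past 2-fold among 22 transport genes at the probe of highest mean. Another probe of Kif3c went from silent to -2.67 in CKO limb, at least 4.87-fold higher.

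RNA-binding factors of neurons had the second-highest median of the neuronal lists, 0.72, with 9 of 23 higher and none lower. That rank rests on bounds. With signal required on both arrays their median was 0.45, below the 0.50 of neural intermediate filaments. Celf3 went from -4.35 to 2.36, 104-fold higher, and Celf6 from silent to 1.45, at least 84.3-fold. Elavl3 was at least 25.8-fold higher but stood at 2.43% of its WT brain level of 5.10. Cpeb1 was at least 8.42-fold and Celf5 5.76-fold higher. Srrm4, which drives neuronal microexon splicing, was 5.18-fold higher. A probe of Srrm3 other than that of highest mean went from silent to 2.70 in CKO limb, at least 200.5-fold higher. A further Srrm3 probe, silent in WT limb, differed by at least 1.54.

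Transcription factors that make and specify neurons differed from list to list. Of 34 proneural and neuroendocrine factors on the array, 21 were compared, 3 were higher (14.3%, against 2.49% of all genes) and 1 was lower. Their median of 0.00 was a bound set to 0, and with signal required on both arrays the median was -0.07. Scrt1, Myt1 and Myt1l were each silent in WT limb, and at least 13.1-fold, 5.34-fold and 2.35-fold higher in CKO limb. Neurod2 was 3.09-fold lower, from -3.21 to -4.84. Neurod6, Neurog2, Tbr1 and Pax6 were silent on both arrays, although above background in WT brain. Of 17 factors of specified neurons, none passed 2-fold in either direction, and Lhx5, Pou3f2 and Phox2a were silent. Neural tube progenitor genes had none higher and 2 lower among 14, the bounds of Six3 and Nkx6-2 given further on, and Nr2e1, Sox2 and Otx2 were silent on both limb arrays.

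Axon guidance and neurotrophic genes, many of which limb tissue uses itself, hardly differed. Of 45 guidance genes, the netrin receptor Unc5a was 7.82-fold higher, from -1.10 to 1.87, and Unc5d 10.1-fold lower, from -1.18 to -4.52, with another probe of Unc5d 2.08-fold lower. The list median was -0.03. None of 18 neurotrophic factor and receptor genes passed 2-fold.

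**Figure D3:**
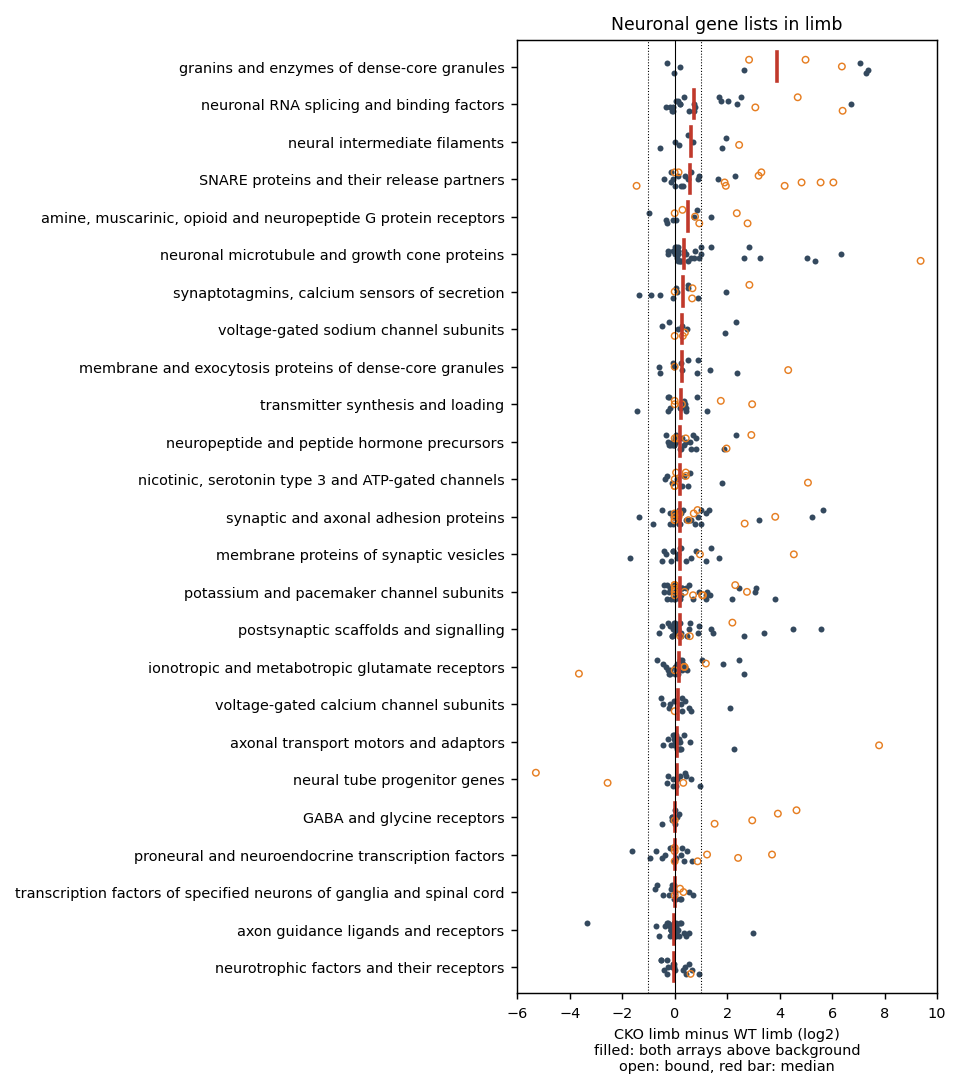
CKO minus WT difference in limb (log2, horizontal axis) of each compared member of the 25 neuronal lists, ordered by median; filled points were above background on both arrays, open points are bounds, red bars are medians and dotted lines mark 2-fold. Granule cargo genes have a median of 3.91, whereas the medians of guidance and neurotrophic genes are -0.03.

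The silent genes can be counted directly. Among genes of the array with a current symbol, 1043 were above background in WT brain and not in WT limb. In CKO limb 120 of these (11.5%) were at least 2-fold higher, 418 were above background under that bound and 505 stayed silent. Within the neuronal lists there were 160 such genes, of which 40 (25%) were higher and 70 stayed silent. The shares varied between lists. For SNARE and release genes 8 of 11 were higher, and for GABA and glycine receptors 4 of 7. For proneural factors 3 of 18 were higher and 11 stayed silent, and for factors of specified neurons none of 12 was higher and 9 stayed silent. None of 11 silent progenitor genes was higher, and 10 stayed silent. The differences between these shares were not tested.

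**Figure D4:**
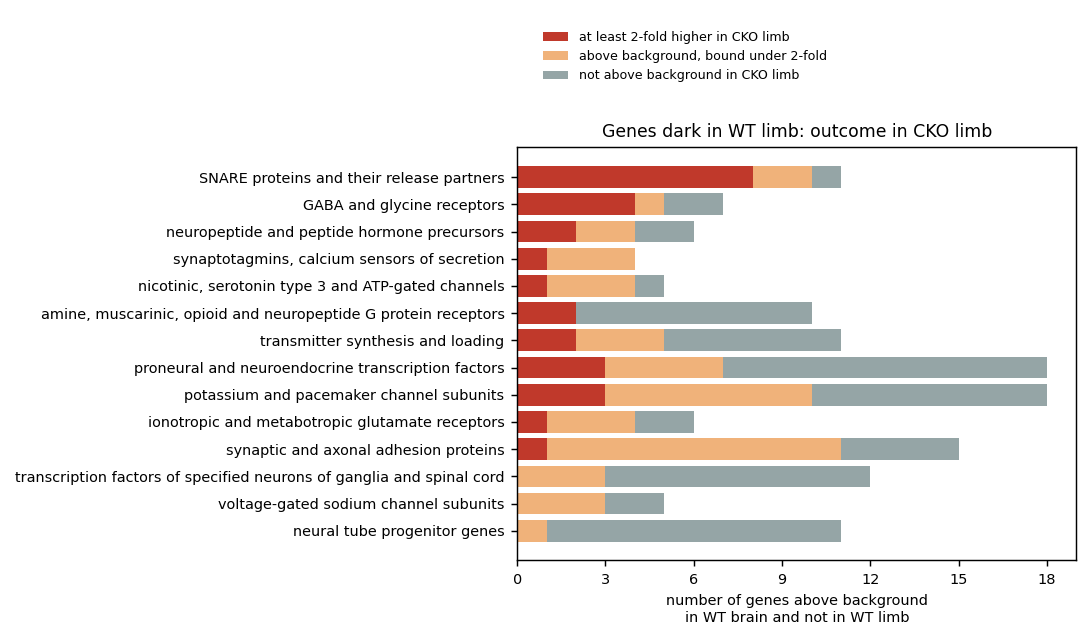
Number of genes above background in WT brain and not in WT limb (horizontal axis) in each neuronal list with at least 4 such genes, split by outcome in CKO limb. Red marks genes at least 2-fold higher, orange genes above background under that bound, and grey genes still not above background; red makes up 8 of 11 SNARE and release genes and none of the 11 neural tube progenitor genes.

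Levels in CKO limb mostly fell short of brain. Of the 105 higher members, 102 were above background in WT brain, where their CKO limb level had a median of 35.3% of the WT brain level at the same probe, and 18 stood at or above it. Of the 53 higher members with another probe above background, that probe was at least 1.5-fold higher for 41 (77.4%).

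Markers of cells that could bring neuronal RNA into a limb sample were set beside these values. Of 16 compared genes of peripheral ganglion neurons, 2 were higher (12.5%, against 2.49% of all genes), Tubb3 from -1.76 to 0.87 (6.19-fold) and Nefm, and the median was 0.11. At 1.5-fold 5 were higher and none was lower, Isl1, at least 0.87 higher, and Nefl, from 0.09 to 0.80, among them. The ganglion genes Tlx3, Ret, Scn9a, Avil and Th were silent on both arrays. Peripherin (Prph) was at -3.12 and -3.68, and Pou4f1 at -1.27 and -1.42. The part of ganglion axons or cells in the neuronal values was not tested. None of 15 Schwann cell and neural crest genes differed by 2-fold, with a median of 0.10 and Sox10 at -0.50 and -0.20. Of 14 spinal cord and motor neuron markers, 5 were compared and none differed by 2-fold, and Mnx1, Lhx3, Chat, Olig2 and Foxb1 were silent on both arrays.

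The RE1 consensus, a 17-base motif, was searched in RefSeq promoter windows of mouse build GRCm38.p6, which run from 250 bases before to 50 bases after each start. Both strands were read, and no mismatch to the consensus was allowed. It lay in a window of 21 of 27025 genes (0.0777%). Of genes compared in limb, 12115 had a window and 11 held the motif. These 11 included 8 of 307 higher genes (2.61%), 0 of 186 lower genes and 3 of 11622 genes that differed by less than 2-fold (0.0258%). Among neuronal genes silent on both limb arrays and above background in WT brain, 0 of 54 held it. A match is a run of letters in the window, not a measured binding site, and no match says nothing of elements elsewhere.

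The motif's arms, searched alone, were commoner and showed the same order. The left arm, TCAGCACC, was in 5.54% of the higher genes' windows, 1.08% of the lower genes' and 1.85% of all genes'. The right arm, GGACAGC, was in 18.6%, 5.91% and 7.59%. The arms can overlap full matches. The 3 genes with a full match that differed by less than 2-fold were Crip2 (0.50), Nbeal1 (-0.12) and Robo2 (-0.08), all above background in WT limb at 4.01, -0.86 and -2.59.

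The matches of the 8 higher genes are shown because they are the full matches in the windows of genes higher in CKO limb. They are given 5′ to 3′ on the gene's strand, from RefSeq on GRCm38.p6, with the motif in capitals and up to 15 bases on either side. Those of Fbll1 (chr11:35799041-35799087, minus strand), Lhfpl5 (chr17:28575630-28575676, plus), Gria2 (chr3:80802974-80803020, minus), Osbp2 (chr11:3774776-3774822, minus), Ogdhl (chr14:32321899-32321945, plus) and Scamp5 (chr9:57468183-57468229, minus) lie before the start. That of Amer3 (chr1:34579679-34579695, plus) spans the start and that of Ttc9b (chr7:27653942-27653958, plus) lies past it, so only the motif is given.
Fbll1: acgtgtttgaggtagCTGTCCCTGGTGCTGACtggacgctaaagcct
Lhfpl5: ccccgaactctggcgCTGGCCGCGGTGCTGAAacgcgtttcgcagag
Gria2: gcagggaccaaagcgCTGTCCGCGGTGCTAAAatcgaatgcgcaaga
Osbp2: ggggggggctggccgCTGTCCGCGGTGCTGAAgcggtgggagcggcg
Ogdhl: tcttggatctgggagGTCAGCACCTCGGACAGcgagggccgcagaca
Scamp5: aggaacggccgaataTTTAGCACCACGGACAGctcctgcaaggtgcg
Amer3: CTGGCCGTGGTGCTGAC
Ttc9b: CTGTCCCCGGTGCTGAT

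The genes that hold these motifs differed by unlike amounts. The nucleolar fibrillarin relative Fbll1 went from -3.88 in WT limb to 1.08 in CKO limb, 31.0-fold higher. The Gria2 value is given above, and the vesicle protein Scamp5 went from -1.46 to -0.08. Ogdhl, a brain relative of a citric acid cycle enzyme, differed by 1.66 and Amer3 by 1.6. Lhfpl5, a hair cell gene, differed by at least 2.60, Ttc9b by at least 2.10 and the oxysterol-binding protein gene Osbp2 by at least 1.78, each silent in WT limb by its call.

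Outside all lists, the genes higher by the largest measured folds were Lrp11, from -2.34 to 3.82 (71.4-fold) and above its WT brain level of 2.09, the mitochondrial gene Gdap1 (45.4-fold) and Vstm2l (39.1-fold). The sialyltransferase St8sia3 was at least 108-fold higher. Others, chosen after their values were seen, have known roles in neurons. Actl6b, a subunit of the neuronal chromatin remodeller BAF, was at least 6.62-fold higher. The chloride exporter Slc12a5 was 5.97-fold, the G protein subunit Gnao1 6.67-fold and the planar polarity cadherin Celsr3 9.63-fold higher. The vesicle transporter homologue Svop was at least 41.8-fold higher, and its other probe, above background on both arrays, differed by 0.86. Of 86 higher genes outside the lists with another probe, that probe was at least 1.5-fold higher for 58 (67.4%).

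Programs of the limb itself were followed with 22 lists, also chosen with earlier results of these data known. Of 554 compared members, 14 were higher by 2-fold or more (2.53%, against 2.49% of all genes). Those lower by as much were 26 (4.69%, against 2.16% of all genes), and the median of the members was -0.04. Red cell, Hox, skin, mast cell and neutrophil genes held most of these members, while patterning, cartilage, vessel, muscle and cell cycle genes held few or none.

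Red cell genes had the lowest median, -0.80, with 11 of 26 at least 2-fold lower and 1 higher. The haem enzyme Alas2 went from 3.29 to 1.49, 3.47-fold lower, and the globin chaperone Ahsp from 3.74 to 1.97, 3.41-fold lower. The membrane anion exchanger Slc4a1 was 2.85-fold lower, and Trim10 was 3.39-fold lower. The adult globin genes Hba-a1 and Hbb-bt differed by -1.16 and -1.08 and the embryonic ones Hbb-y, Hbb-bh1 and Hba-x by -0.64, -0.69 and -0.70. Other probes gave -1.13 for Hbb-bh1 and -1.25 to -1.61 for Hbb-bt, so no order between adult and embryonic genes can be read, and globin copies are near-identical and their probes cannot be assigned to 1 copy with certainty. Of the 5 members above 0, only the erythropoietin receptor Epor passed 2-fold, from -0.80 to 0.66 (2.76-fold higher). Another was Klf1, an erythroid regulator, at a difference of 0.59, while the regulator Gata1 differed by -0.40. In brain the list's median was 0.02. Blood content of the samples was not recorded and its part was not tested.

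Skin genes were lower as a group at a smaller size. All 22 compared genes of differentiating epidermis were below 0, with a median of -0.64 and 4 at least 2-fold lower, against 55.1% of all genes below 0. The desmosomal cadherin Dsg1a went from -1.28 to -2.99 (3.28-fold lower), the keratin Krt4 from -1.71 to -3.42 (3.26-fold), Krt1 from 1.81 to 0.61 (2.30-fold, with its other, fainter probe at -4.85 on both arrays), and Dsc1 was at least 2.22-fold lower. The cornified envelope gene Lor differed by -0.77. Of 26 basal epidermis, periderm and apical ridge genes, 24 were below 0, with a median of -0.50, and only Ovol1 passed 2-fold (2.03-fold lower). The ridge ligand Fgf8 differed by -0.61. Krt8 and Krt18, keratins of simple epithelium and periderm, went the other way, by 0.70 and 0.39.

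Other blood and immune genes split by cell type. Neutrophil granule genes were higher, with Camp, from -4.80 to -3.06 (3.34-fold), Mpo, from -1.66 to -0.05 (3.04-fold), S100a8 (2.95-fold) and S100a9 (2.34-fold), and Ctsg at least 3.30-fold. In all, 5 of 8 were past 2-fold. Mast cell genes were lower, with the chymase Cma1 from 2.46 to 0.78 (3.20-fold) and Cpa3 from 2.33 to 0.92 (2.66-fold), besides Hdc, 3 of 5 in all and each of the 5 below 0. This split of 1 list was made after its values were seen, as was the choice of Tpsg1 (2.90-fold lower) and Il1rl1 (2.60-fold lower), 2 further mast cell genes. Macrophage genes had a median of -0.28 and interferon response genes of -0.26, and only Rsad2 (2.16-fold lower) passed 2-fold. None of 19 histocompatibility genes did.

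Muscle genes were slightly higher at their probes of highest mean. Of 39 sarcomere and contraction genes, 38 were above 0, against 40.0% of all genes, with a median of 0.46 and a highest value of 0.78, for Mybph. The myosin chain Myl2 was at -0.43. The troponin Tnnt1 went from 4.63 to 5.25 and the actin Acta1 from 4.21 to 4.74. No member passed 2-fold at that probe. Other probes disagreed for Myoz2, at 2.93-fold lower, and Trdn, where one was at least 20.4-fold lower and another differed by 0.18. Of 19 myogenic regulators and progenitor genes, none passed 2-fold either, with a median of 0.38, Myog at 3.12 and 3.74, Pax7 at -1.88 and -1.27, and Myod1 at 0.06 and 0.43. A fainter probe of Itga7 was 2.16-fold higher. Of glycolysis and hypoxia genes, 27 of 31 were above 0, with a median of 0.31 and the aldolase Aldoc highest at 0.96.

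Skeletal lists held few genes past 2-fold, for cartilage and tendon in shares near those of all genes. The type I collagen gene Col1a1, the main bone and skin collagen, went from 6.52 to 4.44, 4.24-fold lower, and its other probes were 4.24-fold and 4.77-fold lower. The homeobox gene Dlx3 was 2.36-fold lower. The median of 20 bone and periosteum genes was -0.20, and these 2 were the lower ones (10%, against 2.16% of all genes). Of 27 cartilage genes, Epyc was 2.70-fold lower and Prg4, a joint lubricant, 2.30-fold higher. Each is 3.7% of the list, against 2.16% of all genes lower and 2.49% higher. Col2a1 was at 4.10 and 3.89 and the regulator Sox9 at 1.62 and 1.54, while the type IX collagen genes Col9a1, Col9a2 and Col9a3 differed by 0.69, 0.45 and 0.31. Among 28 tendon and connective tissue genes, only keratocan (Kera) passed 2-fold (3.57%, against 2.16% of all genes lower), from 3.96 to 2.35 (3.06-fold lower). None of 14 joint interzone and 13 growth plate genes did.

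Limb patterning genes stayed within 2-fold, all 39 of them, with a median of -0.10 and a range from -0.61 for Fgf8 to 0.75 for Meis1, which marks the proximal limb. Hox genes split by position in their clusters. Of 21 compared genes of paralogue groups 1 to 8, 19 were above 0 and 7 at least 2-fold higher, with a median of 0.51. Hoxa2 was 4.06-fold, Hoxb5 3.1-fold, Hoxa5 2.71-fold, Hoxd1 2.68-fold and Hoxb4 2.67-fold higher. Hoxb6 was 2.71-fold higher at 1 probe, and its other probe differed by -0.21. Of 14 genes of groups 9 to 13, 12 were below 0, with a median of -0.33 and Hoxc10 lowest (2.01-fold lower). Clusters differed in size. For groups 1 to 8 the medians were 0.61 for Hoxa, 0.76 for Hoxb, 0.12 for Hoxc and 0.16 for Hoxd, with none of 4 Hoxc genes past 2-fold. For groups 9 to 13 they were -0.26 for Hoxa, -0.80 for Hoxc and -0.37 for Hoxd, and the 1 Hoxb gene compared was at 0.06. The dividing line was drawn after the values were seen. The amount of proximal tissue taken with each limb was not recorded, so genotype and dissection cannot be told apart here.

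Signalling, vessel, cell cycle and stress genes hardly differed. Of 40 Fgf, Wnt, Bmp and Gdf ligands, only Bmp8a passed 2-fold (2.28-fold lower). None did among 34 feedback targets of these pathways, 27 vessel wall genes, 29 cell cycle genes, 27 genes of p53, unfolded protein and heat shock responses or 20 housekeeping genes. The median was -0.19 for the ligands, and those of the other lists lay between -0.08 and 0.06.

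**Figure D5:**
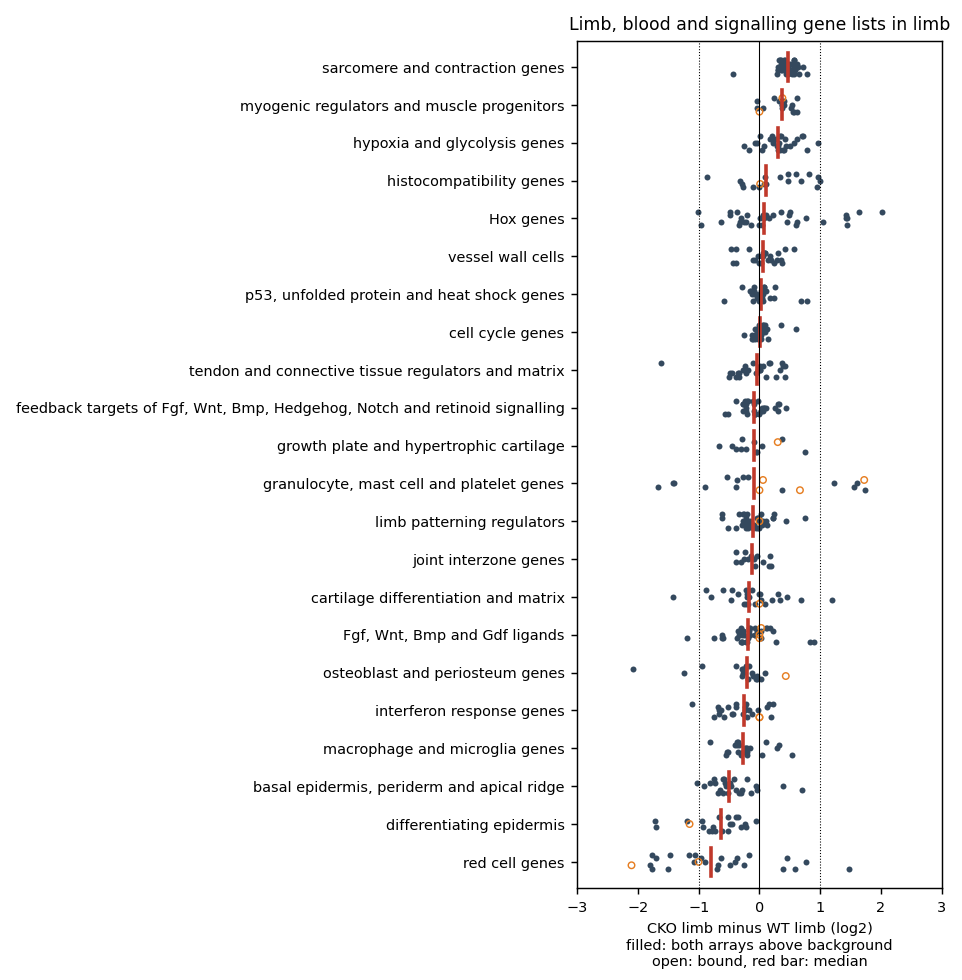
CKO minus WT difference in limb (log2, horizontal axis) of each compared member of the 22 limb, blood and signalling lists, ordered by median; filled points were above background on both arrays, open points are bounds, red bars are medians and dotted lines mark 2-fold. Sarcomere genes sit at a median of 0.46 with little spread, and differentiating epidermis and red cell genes have medians of -0.64 and -0.80.

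Most of the largest lower differences belonged to genes outside every list. Prl2c5, of the proliferin family, went from 0.82 in WT limb to -4.79 in CKO limb, 48.6-fold lower. The transcript C130026L21Rik went from 0.34 to -5.13 (44.1-fold lower), the trypsin inhibitor Spink1 from -0.87 to -5.41 (23.3-fold) and Ppp1r3a, a glycogen phosphatase subunit, from 0.20 to -3.96 (17.9-fold). Another probe of Ppp1r3a, silent in WT limb, differed by at least 0.40 the other way. Dmrta2 was 11.8-fold, Nudt12 9.32-fold, Prap1 7.49-fold, Map7d2 5.57-fold, Olfr1495 4.84-fold and Coq8a 4.79-fold lower. Gt(ROSA)26Sor, the transcript of the Rosa26 locus, went from -0.49 to -3.12, 6.21-fold lower.

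The bounds in that direction were genes with signal on the WT limb array and silent in CKO limb. The vomeronasal receptor gene Vmn2r26 was at 0.32 in WT limb (at least 67.8-fold lower in CKO), Six3, a forebrain and eye regulator, at -0.47 (at least 39.1-fold) and the oocyte gene Oog4 at -0.57 (at least 36.6-fold). Armc4 and Cage1 were at least 19.9-fold and 16.8-fold lower, LOC100043315 at least 22-fold and Nkx6-2 at least 5.88-fold. Vmn2r26 and Oog4 were also silent in WT brain. Of the 22 lower genes outside the lists with another probe, that probe was at least 1.5-fold lower for 4 (18.2%), and with 1 array a single deviating spot and a difference in RNA cannot be told apart.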

How the data were processed

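Total RNA was labelled with Cy3 and hybridised to 1-colour 4x44K arrays, per the labels. Per the submitters' processing notes, the authors took the spot values with Agilent Feature Extraction, version 9.5.3.1. The deposited intensity values were background-subtracted and detrended within each array, per the file headers. The deposited series table of intensities differed from them by at most 0.0071 on the log2 scale. Control spots and outlier spots were left out, log2 values were taken and each array's 75th percentile subtracted (777 in WT limb, 928 in CKO limb). Spots of a probe were averaged (41174 probes), and a gene took its probe of highest mean over the 4 arrays. Probes were named by RefSeq accession (26925), symbol (5576), synonym (893) or the file's name (7780), and their positions are on mm9.

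The limb comparison, the 52 lists and the naming rule were chosen with earlier results of these data known. Named genes are Rest, the 12 largest measured differences and 6 largest bounds each way among genes with a current symbol (the measured ones unsaturated and with no other probe at least 1.5-fold the opposite way), up to 6 members past 2-fold each way per list and up to 4 silent members per neuronal list; others were chosen after their values were seen. Genes of the lists without a probe by that name were not analysed here, and some measured genes are not reported here. Alternatives covered background, scaling, probe choice, detection filter and size of call. Calculations used Python 3.11.15, numpy 2.4.6, pandas 2.3.3 and scipy 1.17.1, and the scripts were tested on simulated data.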

Additional observations from a re-analysis of the deposited data

Results flagged for a closer look

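Genes named above were set against the same contrast in brain, and 3 of them differed at least 2-fold in opposite directions in the 2 tissues. With 1 array per group the difference between tissues was not tested. Prap1, a secreted gut and uterus protein, differed by -2.90 in limb and 1.16 in brain. Hoxd1 differed by 1.42 in limb and -1.49 in brain. The cartilage proteoglycan gene Epyc differed by -1.43 in limb and by at least 4.60 in brain, where it was silent in WT. The brain difference was not particular to Epyc. In CKO brain 18 of 27 cartilage genes were at least 2-fold higher, with a list median of 1.88, against -0.18 in limb.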

How the results depend on the processing

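Counts moved by over 1.5 times under some settings. With normexp there were 284 genes higher and 152 lower. With signal required on both arrays there were 262 and 216, with 63 neuronal list members higher. Without a filter on dim probes 901 genes were lower. At 1.5-fold there were 880 higher, 872 lower and 67 limb list members lower, and at 3-fold 283, 165 and 10. In all, 82 list medians moved, 30 of them under normexp and 19 with signal on both arrays. Those of the lists chosen as main results, and all that changed sign, are given here. Normexp gave 2.80 for granule cargo, 0.39 for SNARE and release genes, 0.57 for RNA factors, -0.55 for differentiating epidermis and -0.61 for red cell genes. Quantile normalization gave 3.97 for granule cargo. The mean of all probes gave 3.56, 0.45 for release genes and -0.0105 for ganglion neuron genes. Signal on both arrays gave 2.63, 0.31, 0.45 for RNA factors, -0.070 for proneural factors, -0.70 for red cell genes and -0.021 for amine and opioid receptors. No filter gave 0.45 for release genes, -0.16 for proneural factors, -0.86 for red cell genes, -0.041 for amine and opioid receptors, -0.0041 for calcium channels, -0.057 for progenitors and -0.021 for ganglion neurons. The probe brightest in limb gave -0.70 for red cell genes and turned Oprl1 to -0.035 and Hoxb6 to -0.21. The causes were not tested. Over all settings, 380 of 468 list medians moved by no more than the spot error of 0.042, and 1249 of 1290 values of named genes kept their direction and stayed past 2-fold. These totals do not measure robustness, because several settings could hardly change the values. The series table holds nearly the same signals, and 2 of the scalings shift all genes of an array alike. The detection filters leave the value of each gene they keep as it was.

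No paired analysis was possible because each group had 1 array, and no array was left out for the same reason. The median of all probes above background on both arrays stayed between -0.05 and -0.02 in every scaling. Precision is limited by the number of arrays and, for faint genes, by the signal over background, which differed between the limb arrays.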

Other observations

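Genes around Rest mostly stayed within 2-fold. Within 10 Mb of Rest on chromosome 5, 76 genes were compared, 0 were at least 2-fold higher and 2 were lower (2.63%), Lnx1 and Ugt2b34, and the median was -0.04. Ugt2b34 was 2.80-fold lower. Lnx1 was 4.92-fold lower at its probe of highest mean, but 1.51-fold and 1.94-fold higher at 2 others. Over whole chromosomes, the share of genes at least 2-fold higher ran from 1.15% on chromosome 16 to 3.51% on chromosome 18, and the share at least 2-fold lower from 0.70% on chromosome 9 to 3.37% on chromosome 13.

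A few immune genes, chosen after their values were seen, differed by more than the immune lists did. The B cell chemokine Cxcl13 went from -3.56 in WT limb to -0.82 in CKO limb, 6.68-fold higher, and the chemokine scavengers Ackr1 and Ackr2 were 5.89-fold and 6.69-fold higher. The membrane genes Ms4a4c and Ms4a4d were at least 13.3-fold and 12.1-fold lower, each silent in CKO limb.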
